A study of Mus musculus with 11 samples.

Results

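Imprinted clusters of the mouse genome give rise to long non-coding RNAs that come from 1 parental chromosome, and 42 of the 36097 non-coding features listed for the mouse retina lie in 3 of them. The members were taken by position alone (mm10 build): every listed feature that overlaps chr12:109500000-109800000, the window of Meg3, Rian and Mirg, chr7:59200000-60200000, the window from Snrpn to the antisense transcript of Ube3a, or chr7:143200000-143300000, the window of Kcnq1ot1. The Meg3 window held 1 member, on the plus strand. The Snrpn to Ube3a window held 39, of which 36 are on the minus strand and 3 on the plus strand, and the Kcnq1ot1 window held 2, both on the minus strand. No member overlaps Rian, Mirg, Rtl1, Snrpn or Snurf, and those genes were not analysed here.

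The libraries came from retinas at postnatal day 21, 5 from wild-type mice and 6 from mice lacking Nrl, the transcription factor that sends photoreceptor precursors to the rod fate. RNA was depleted of polyadenylated transcripts and read as stranded single ends of 50 bp. The labels give no strain, sex, knockout allele or animal, and the p-values below therefore cover only library-to-library spread, which may be technical. The listed features held 3238184 to 4150460 reads in the wild-type libraries and 3374221 to 4876429 in the knockout libraries. At the Nrl gene, the feature MSTRG.28375 on the opposite strand held 33.3 to 55.5 normalised counts in wild-type and at most 0.758 in knockout, where 5 of 6 libraries were at 0 (exact two-sided permutation p = 0.00216). A normalised count is a read count that the authors divided by a size factor of the library.

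Genomic imprinting keeps 1 parental copy of a gene silent through DNA methylation set in the germ line. At the Snrpn locus the paternal chromosome produces a very long transcript, Snhg14, which is the host of tandem arrays of C/D box small nucleolar RNAs (snoRNAs) and continues through Ube3a on the opposite strand. In neurons this antisense part keeps the paternal Ube3a allele silent, and loss of the paternal or the maternal genes of the region underlies Prader-Willi and Angelman syndromes. Meg3 is transcribed from the maternal chromosome at the head of a series of non-coding RNAs. Kcnq1ot1 is a paternal transcript antisense to Kcnq1 that silences neighbouring genes in cis.

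Nearly all minus-strand members of the Snrpn to Ube3a window lie in the snoRNA host gene. Of the 36, 35 lie in the annotated Snhg14 gene (chr7:59307924-59975759, minus strand, GENCODE M21) and 2 of these touch an Snhg14 exon. The other one, MSTRG.80249 (chr7:59261066-59262325), lies past the annotated end of Snhg14, antisense to Ube3a. The window holds 210 annotated snoRNA genes in tandem arrays: 137 genes of a family with a median length of 79 bases and 70 genes of a family with a median length of 94 bases, with 3 others. RefSeq gives Snord116 as a synonym of Gm26504, a gene of the longer family. The shorter family lies at the place of the Snord115 array. Only 8 of the 36 members lie over snoRNA genes, covering 25 of the 210. The other 28, which include MSTRG.80249, lie over none: 22 of them have the nearest snoRNA gene downstream of them and 6 have it upstream.

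Copies of each family are printed to show what the host carries and how alike the copies are, 5′ to 3′ on the transcribed strand, as letters of the DNA. They come from the GENCODE M21 transcripts. The capitals mark the first TGATGA, the C box letters, and the last CTGA, the D box letters. Gm25449, Gm24872 and Gm24310 hold a further TGATGA, which is left in lower case. These boxes are the short motifs by which box C/D snoRNAs are recognised by their protein partners.
Gm25449 (chr7:59419323-59419401): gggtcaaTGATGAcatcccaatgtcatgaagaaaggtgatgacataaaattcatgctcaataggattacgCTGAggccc
Gm24872 (chr7:59421187-59421265): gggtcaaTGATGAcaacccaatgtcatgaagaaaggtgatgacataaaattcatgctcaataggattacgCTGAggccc
Gm24310 (chr7:59518411-59518489): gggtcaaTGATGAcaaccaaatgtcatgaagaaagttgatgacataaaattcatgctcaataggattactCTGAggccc
Gm22417 (chr7:59711009-59711102): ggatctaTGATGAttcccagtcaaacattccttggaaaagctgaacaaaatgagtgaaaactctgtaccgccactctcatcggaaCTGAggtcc
Gm26504 (chr7:59675988-59676081): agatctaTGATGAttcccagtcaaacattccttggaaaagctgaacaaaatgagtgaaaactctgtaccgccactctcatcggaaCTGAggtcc

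Gm25449 is the only snoRNA gene that is itself a member. Gm24872 lies in the member MSTRG.80289, Gm24310 in MSTRG.80344 and Gm22417 in MSTRG.80417, while Gm26504 lies in none. Gm25449 is 98.7% identical to Gm24872 and 94.9% identical to Gm24310, and Gm22417 is 98.9% identical to Gm26504. Between the families the identity of Gm25449 and Gm26504 is 55.3%.

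TGATGA occurs, on the transcribed strand, in 100% of the shorter family and in 94.3% of the longer one, against 26.1% of the 1507 snoRNA transcripts of GENCODE M21. CTGA occurs in 98.5% and 100% of the families, against 79.5% of all these transcripts. The 1507 transcripts include the copies of both families, and a match anywhere in the sequence was counted. A match of these letters is a description and not a shown site.

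How far a short read can be placed in 1 copy differed between these copies. Gm24872 has 32 other copies with the identical sequence and Gm22417 has 29. Of the 30 stretches of 50 bases in Gm25449, 14 also occur in another copy. All 30 of the stretches in Gm24872 do, and 1 of the 30 in Gm24310. The sources used here do not say how reads with several matching places were treated. The part of a member's value that comes from shared stretches is therefore uncertain as to copy. The sequences of the assembled members were not analysed here, so whether the pieces between the snoRNA genes are repeated as well was not tested.

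Over the whole minus strand of the Snrpn to Ube3a window, the summed level of the members was lower in every knockout library than in any wild-type library. The sum of the 36 members was 8169.8, 8872, 8956, 8136 and 9143 normalised counts in wild-type libraries 1 to 5. In the knockout libraries it was 5930.3 at the lowest, 6880.5 at the median and 7548 at the highest. The mean was 8655 ± 469 (SD, n = 5) in wild-type and 6805 ± 582 (SD, n = 6) in knockout, which is 21.4% lower and a log2 ratio of -0.35. Leaving out any 1 library kept this log2 ratio between -0.38 and -0.31. A sum over chosen members is a description, and it got no test. In RNA from whole retina, fewer cells of a type and less RNA per cell cannot be told apart.

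**Figure D1:**
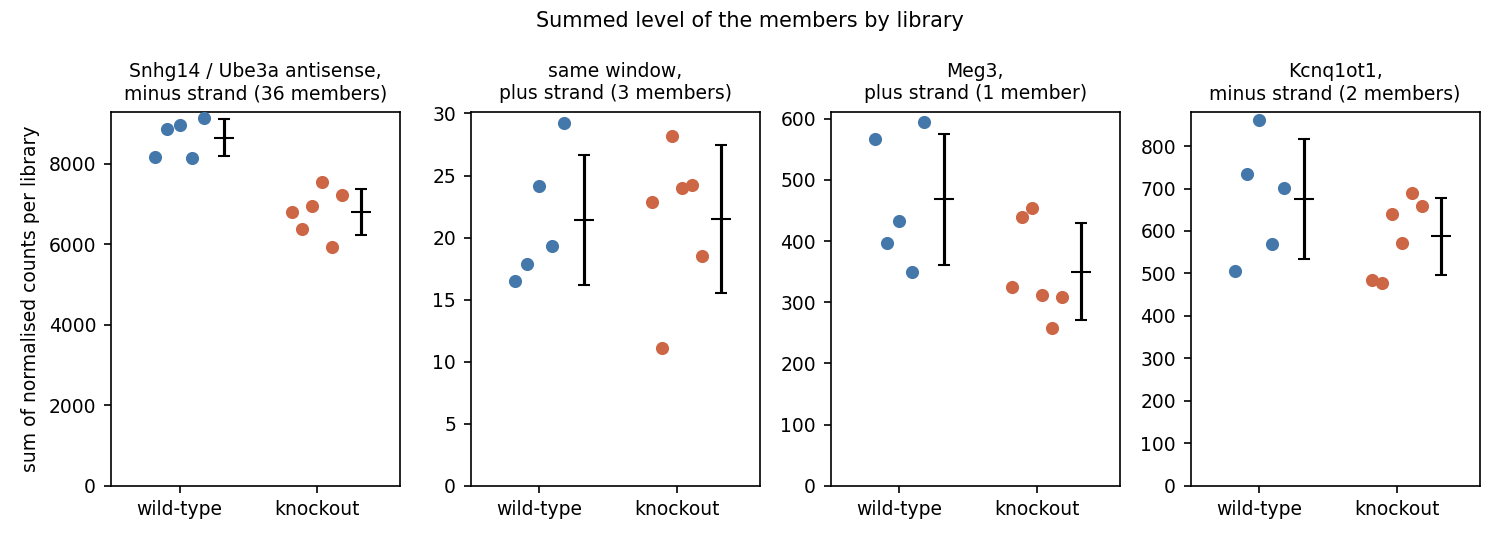
Sum of normalised counts of the members in each library (vertical axes, from 0, with a scale for each panel) for the 4 combinations of window and strand, in wild-type (blue) and Nrl knockout (orange); points are libraries, and the bars give the mean and SD. The Snhg14 and Ube3a antisense sums do not overlap between the groups (8136 to 9143 against 5930.3 to 7548), while the other 3 panels do overlap.

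Taken singly, all 36 minus-strand members had a lower mean in knockout, against a log2 difference below 0 in 51.5% of the 21395 features tested across the retina. The test was limma on log2(normalised count + 1) with Benjamini-Hochberg adjustment, run on every feature whose 11 libraries averaged 5 or more. An adjusted p below 0.05 was a call. By this test 9 of the 36, or 25.0%, were called lower and 0 higher, beside 12.6% of all tested features called lower and 15.6% called higher. The 36 had a median log2 difference of -0.40, and all tested features one of -0.02. The groups did not overlap for 14 of the 36, and 9.13% of all tested features had knockout libraries all below the wild-type libraries. Since 35 of the 36 lie in 1 annotated gene, the members are not independent of each other.

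The single differences were small and much alike. They ran from -0.76 to -0.12, and the means were 8.45% to 45.0% lower with a median of 24.0%. Among the 33 members with a mean of at least 20, the SD of the log2 differences was 0.10 and their median SE 0.16. Library shifts that the members share enter the SE but not this SD. The comparison therefore does not show whether the members differ from each other. The 3 members of lower mean, with 8.29 to 14.0 normalised counts in wild-type, gave the 3 largest log2 differences (-0.76 to -0.68) with a median SE of 0.36, and none was called by limma. An unadjusted limma p below 0.05 was reached by 23 of the 36. The share of all tested features that reached it was not counted. After adjustment 28.1% of them were called in either direction.

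**Figure D2:**
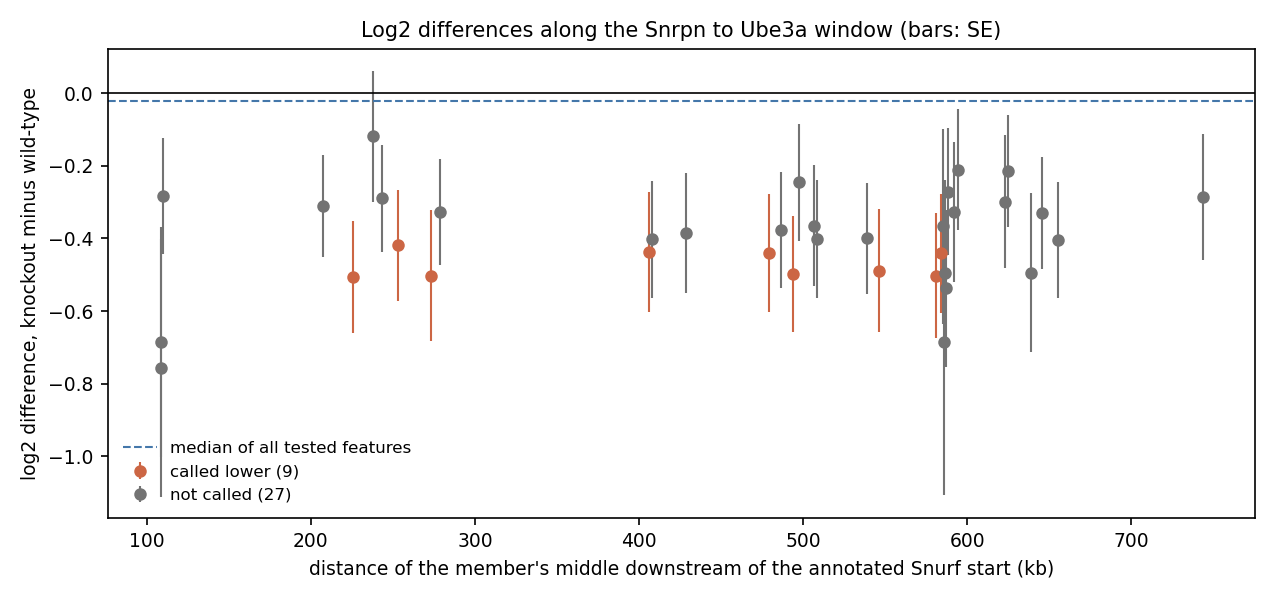
Log2 difference, knockout minus wild-type, on the log2(normalised count + 1) scale (vertical axis, bars give the SE) of the 36 minus-strand members against the distance of their middle from the annotated start of Snurf (horizontal axis, kb). All 36 lie below 0 and below the dashed line at the median of all tested features (-0.02), with the 9 called lower (orange) spread among the 27 not called (grey).

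The 3 members called in the most settings lie in both arrays. MSTRG.80451 (chr7:59779601-59779700, 100 bp) lies in the array of the 94-base family, 258 bp upstream of the snoRNA gene Gm25157. It held 335, 314, 299, 276 and 343 normalised counts in wild-type libraries 1 to 5 and 189, 228 and 245 at the lowest, median and highest in knockout. Every knockout library was below every wild-type library. It fell from 313 ± 27.2 to 221 ± 23.9 (SD, n = 5 and 6), a log2 difference of -0.51 (SE 0.15, limma Benjamini-Hochberg adjusted p = 0.0132).

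MSTRG.80340 (chr7:59511075-59511205, 131 bp) lies in the array of the 79-base family, 63 bp upstream of Gm22255. Its wild-type libraries held 343, 256, 293, 229 and 309 normalised counts, and its knockout libraries 177, 199 and 228 at the lowest, median and highest. The highest knockout library lay just under the lowest wild-type library. The change was from 286 ± 44.5 to 201 ± 18.6 (SD, n = 5 and 6), a log2 difference of -0.50 (SE 0.16, limma adjusted p = 0.0190).

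MSTRG.80292 (chr7:59423321-59424735, 1415 bp), also in the 79-base array, held 139.9, 167, 141, 119.9 and 122 normalised counts in wild-type and 83.4, 97.0 and 117 in knockout. The groups again did not overlap. It fell from 138 ± 18.8 to 97.0 ± 12.5 (SD, n = 5 and 6), a log2 difference of -0.50 (SE 0.17, limma adjusted p = 0.0285). It was the single member called by edgeR's quasi-likelihood test on the whole reads of 9 libraries (Benjamini-Hochberg adjusted p = 0.0423).

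Named next for the size of their difference were MSTRG.80311 and MSTRG.80426. MSTRG.80311 (chr7:59458936-59459070), 53 bp upstream of Gm24983, held 181, 152, 150.4, 172 and 209.8 normalised counts in wild-type and 103, 116 and 149 in knockout. The highest knockout library came within about 1 normalised count of the lowest wild-type library without reaching it. It fell by 0.49 on the log2 scale (SE 0.17, limma adjusted p = 0.0310). MSTRG.80426 (chr7:59726567-59736685, 10119 bp) spans 4 snoRNA genes of the 94-base family. It held 107, 96.0, 78.0, 90.9 and 99.9 normalised counts in wild-type and 55.4, 66.8 and 77.7 in knockout. Here too the groups came close without overlapping. Its fall was -0.50 in log2 units (SE 0.18, limma adjusted p = 0.0376).

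The other 4 calls had log2 differences of -0.42 to -0.44 and adjusted p-values of 0.0395 to 0.0499 in limma. MSTRG.80437 (chr7:59751830-59751937, 108 bp) was the most abundant of the 9, at 543, 526, 498, 416 and 496 normalised counts in wild-type and 316, 378 and 422 in knockout. Its groups overlapped, because the highest knockout library passed wild-type 4. MSTRG.80289, which holds the snoRNA copy Gm24872 printed above, fell from 309 ± 19.7 to 230.3 ± 41.3 (SD, n = 5 and 6). MSTRG.80350 and MSTRG.80392, which lie 79 and 101 bp upstream of a snoRNA gene, went from 221 ± 12.0 to 164 ± 25.3 and from 133 ± 12.2 to 97.9 ± 8.90.

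The most abundant pieces of the host were not called. MSTRG.80459 (chr7:59797313-59797416, 104 bp) held 1066, 1149, 1181, 1103 and 1168 normalised counts in wild-type and 782, 894 and 1134 in knockout. Of its knockout libraries 1, knockout 4, reached into the wild-type range. This gave -0.31 on the log2 scale (SE 0.14, limma adjusted p = 0.109). MSTRG.80274 (chr7:59379671-59381332, 1662 bp) held 764, 1160.2, 1183, 1090.1 and 1236 normalised counts in wild-type and 778, 953 and 1059.6 in knockout. Wild-type 1 was the lowest of all 11 libraries there. The means differed by -0.21 on the log2 scale (SE 0.15, limma adjusted p = 0.351). These 2 members made up 13.3% and 13.1% of the minus-strand sum, and without them the log2 ratio of the sums was -0.38.

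The members over snoRNA genes are given apart because some of the copies they hold share their sequence with others. Of these 8, 2 were called lower and 6 were not, with a median log2 difference of -0.38, beside -0.40 for the 22 members upstream of the nearest snoRNA gene, of which 7 were called. MSTRG.80417 (chr7:59708584-59744327, 35744 bp), the longest member, touches an Snhg14 exon and spans 14 snoRNA genes, Gm22417 among them. It held 428, 402, 413, 402 and 380.3 normalised counts in wild-type and 284, 323 and 368 in knockout. The groups did not overlap, yet the log2 difference of -0.33 was not called (SE 0.15, limma adjusted p = 0.100). Its reads may in part be those of MSTRG.80426, which lies inside it, and MSTRG.80282 likewise lies inside MSTRG.80279.

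The snoRNA Gm25449 was a scarce feature. The member that is this gene held 15.1, 8.47, 12.1, 9.67 and 5.04 normalised counts in wild-type and 1.01, 6.99 and 11.6 in knockout. The groups overlapped, and the log2 difference of -0.69 had an SE of 0.42 (limma adjusted p = 0.259). MSTRG.80344, around Gm24310, went from 398 ± 30.3 to 309.7 ± 53.5 (SD, n = 5 and 6), a log2 difference of -0.38 (SE 0.16, limma adjusted p = 0.0865).

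The other members named over a snoRNA gene or an Snhg14 exon were not called by limma either. MSTRG.80261 (chr7:59358603-59361141), over 2 snoRNA genes, went from 468 ± 65.7 to 371 ± 45.8 (SD, n = 5 and 6; adjusted p = 0.124). MSTRG.80377 (chr7:59574768-59578095), over 1 snoRNA gene, went from 179 ± 13.7 to 138 ± 21.7 (adjusted p = 0.0908). MSTRG.80279 (chr7:59405799-59415469), over 5 snoRNA genes and an Snhg14 exon, went from 118 ± 5.24 to 103 ± 12.5 (adjusted p = 0.402). All 3 had lower means in knockout with groups that overlapped.

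Most of the short pieces lay on 1 side of the snoRNA genes. Of the 24 members of at most 300 bp, 19 lay upstream of the nearest snoRNA gene. In the array of the 79-base family, 13 of these lay 4 to 2217 bp away from it, with a median gap of 63 bp and quartiles of 53 and 101 bp. The widest gap was that of MSTRG.80275, and the next widest, of MSTRG.80288, was 283 bp. In the array of the 94-base family the 6 gaps ran from 248 to 667 bp with a median of 268 bp and quartiles of 258 and 306 bp. The sources used here do not say how the features were assembled.

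Per length, taken as the genomic span, the short pieces were the more abundant. The median level of the short pieces in wild-type was 1150.3 normalised counts per kb, against 127 per kb for the 12 members over 300 bp. Any unread gaps inside a long member would lower its level per kb. The lowest mean of a listed feature was 2.00, so a short feature needs a higher level per kb to be listed. MSTRG.80459 had the highest level, at 10896 per kb in wild-type and 8836 per kb in knockout, and MSTRG.80437 had 4592 and 3440.0. MSTRG.80426 had the lowest, at 9.32 per kb in wild-type and 6.56 in knockout. The median log2 difference was -0.41 for the short members and -0.33 for the longer ones. It was -0.40 in the array of the 79-base family (25 members, 6 called lower) and -0.37 in that of the 94-base family (10 members, 3 called lower). No test of these differences between groups of members was made.

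**Figure D3:**
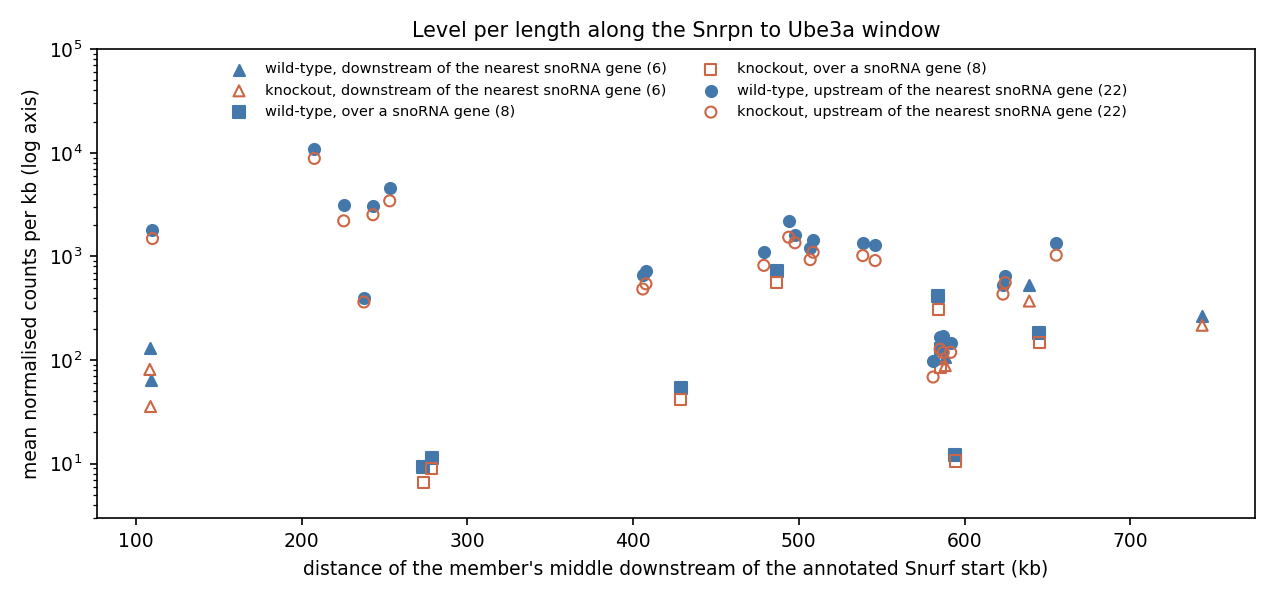
Mean normalised counts per kb of member length (vertical log axis) of the 36 minus-strand members against the distance of their middle from the annotated Snurf start (horizontal axis, kb), in wild-type (filled blue) and knockout (open orange); shapes show the member's place relative to the nearest snoRNA gene. Levels span 9.32 to 10896 per kb in wild-type, and the knockout mean lies below the wild-type mean for each of the 36 members.

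Past the annotated end of Snhg14, the piece antisense to Ube3a was present and was not called. Ube3a encodes a ubiquitin ligase that neurons express from the maternal allele. MSTRG.80249 held 228, 375, 360.1, 308 and 413 normalised counts in wild-type and 228, 274 and 346 in knockout. Wild-type 1 lay as low as the lowest knockout library, and the other wild-type libraries lay between 308 and 413. The mean went from 337 ± 71.7 to 273 ± 42.1 (SD, n = 5 and 6), a log2 difference of -0.29 (SE 0.17, limma adjusted p = 0.256). Without wild-type 1 it was -0.42 and called (adjusted p = 0.0476). Whether counting used the strand is not given, so reads of the antisense piece and of Ube3a introns cannot be told apart with certainty.

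The libraries of a group differed in level across the 36 members. Knockout 5 was the lowest of the 11 libraries for 24 of the 36 members, and the highest library was always a wild-type one. Relative to each member's mean over all libraries, the median of the members was 0.11 to 0.29 (log2) in the 5 wild-type libraries and -0.39 to -0.02 in the 6 knockout libraries, the lowest being knockout 5. That library was also low outside the clusters: over the 398 features of at most 300 bp with a mean of at least 20, its median was 0.44 (log2) below the mean of the other knockout libraries, and over the 7868 longer ones 0.16 below. Without knockout 5 the median log2 difference of the 36 members was -0.34 and the log2 ratio of the sums -0.31.

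**Figure D4:**
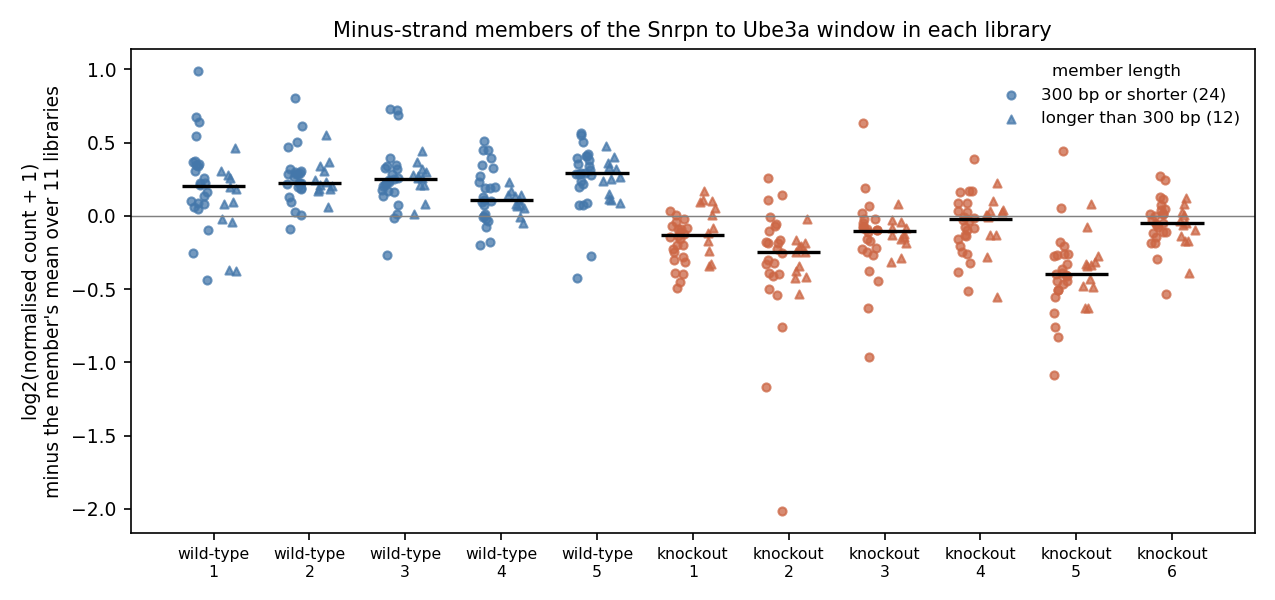
Level of each of the 36 minus-strand members in each library, as log2(normalised count + 1) minus the member's mean over the 11 libraries (vertical axis), with wild-type libraries in blue and knockout libraries in orange; circles are members of at most 300 bp, triangles longer ones, and lines the median. The 5 wild-type medians (0.11 to 0.29) lie above the 6 knockout medians (-0.39 to -0.02), and knockout 5 has the lowest.

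How many members were called depended on which libraries and which test were used. Of the 9 calls, 3 were left without wild-type 2, without wild-type 5 or without knockout 5. Without wild-type 3 or 4, 4 members of this window were called, as many as without knockout 2, and 5 without knockout 1 or 3. On the whole reads of 9 libraries, edgeR called 1 member and DESeq2 called 3, beside 11.8% and 11.7% of all features called lower. Limma on the same 9 libraries also called 1, so these lower counts cannot be put down to the test alone. MSTRG.80451 and MSTRG.80340 were called in all 11 limma fits that left out 1 library. With no filter on the mean limma called 2, beside 9.12% of all features, and with a minimum mean of 20 it called 16 of 33, beside 19.7%. In the authors' deposited table an adjusted p below 0.05 with a lower value in knockout is given for 12 of the members and with a higher value for 0, beside 8.48% of the listed features lower.

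Markers of the photoreceptors moved in the same libraries, by far more. These features lie opposite to their genes and are not the mRNAs. Of the 34 tested features at 10 rod genes, 23 were called lower and 4 higher, and their sum was 2933 to 5003 normalised counts in wild-type and 341 to 551 in knockout, with no feature at 0 in every knockout library. Of the 21 tested features at 6 cone genes, 13 were called higher and 2 lower, with sums of 332 to 380 in wild-type and 1179.99 to 1793 in knockout. One cone feature, MSTRG.16551 at Gngt2, was at 0 in every wild-type library. Of all 21395 tested features 15.6% were called higher and 12.6% lower. At bipolar cell genes 2 of 15 tested features were called higher and 1 lower. At amacrine cell genes 1 of 5 was called lower, at Müller glia genes 1 of 2, at pigment epithelium genes 1 of 10 and at ganglion cell genes 0 of 1. The part of these cell types in the values of the imprinted clusters was not tested.

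On the plus strand of the same window the 3 members were near the limit of detection. Their sum was 16.5, 17.9, 24.1, 19.3 and 29.3 normalised counts in wild-type and 11.1, 23.4 and 28.2 at the lowest, median and highest in knockout. The group means were 21.4 ± 5.25 and 21.5 ± 5.96 (SD, n = 5 and 6), and the groups overlapped throughout. MSTRG.80254 (chr7:59325204-59325727) had means of 9.18 and 9.69, a log2 difference of -0.01 (SE 0.34, limma adjusted p = 0.987). MSTRG.80404 (chr7:59668243-59668433) had means of 9.66 and 8.03, a log2 difference of -0.18 (SE 0.33, adjusted p = 0.757). MSTRG.80485 (chr7:59921815-59921979) had means of 2.57 and 3.78, under the minimum for a test. The difference seen on the minus strand was not detectable at this depth on the plus strand.

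Meg3, the maternally expressed RNA of chromosome 12, was represented by 1 long feature. MSTRG.22194 (chr12:109546445-109558803, 12359 bp) lies on the strand of Meg3 and touches a Meg3 exon, and it holds no miRNA hairpin. It held 566, 397, 432, 350.2 and 595 normalised counts in wild-type and 258, 318 and 455 at the lowest, median and highest in knockout. Wild-type 1 and 5 lay above every knockout library, and the other 3 wild-type libraries overlapped with knockout 2 and 3. The mean was 468 ± 107 in wild-type and 349.6 ± 79.3 in knockout (SD, n = 5 and 6), which is 25.3% lower. The log2 difference of -0.42 had an SE of 0.18 and was not called (limma adjusted p = 0.0932; edgeR 0.195; DESeq2 0.173). Without knockout 2 it was -0.50 on the scale of the sums and called at the edge of the threshold (limma adjusted p = 0.0499756). Its level per length was 37.9 normalised counts per kb in wild-type and 28.3 in knockout.

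Kcnq1ot1, the paternal antisense RNA of Kcnq1, was represented by a pair of neighbouring features that both touch its exon. Kcnq1 encodes a potassium channel subunit. MSTRG.84395 (chr7:143206273-143211318, 5046 bp) held 266, 385, 458, 297 and 353 normalised counts in wild-type and 251, 333 and 356 in knockout. MSTRG.84394 (chr7:143198357-143205915, 7559 bp) held 240.0, 350.0, 405, 272 and 349 in wild-type and 207, 272 and 337 in knockout. In both features wild-type 1 and 4 lay within the knockout range. Their log2 differences were -0.14 (SE 0.17) and -0.25 (SE 0.18), with limma adjusted p-values of 0.608 and 0.348. The sum of both was 675 ± 141 in wild-type and 587 ± 90.4 in knockout (SD, n = 5 and 6), 12.99% lower, with overlapping groups. Levels per kb were 69.7 and 42.7 in wild-type for MSTRG.84395 and MSTRG.84394.

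Across the 3 clusters, therefore, 9 of 41 tested members were called lower and 0 higher, all 9 on the Snhg14 strand. Beside them, 12.6% of all tested features were called lower and 15.6% higher. The count of 9 fell to 1 with limma on 9 libraries and to 3 without knockout 5. Of the 3 members at Meg3 and Kcnq1ot1, 0 were called by limma, edgeR or DESeq2. An unadjusted limma p below 0.05 was reached by 1, a threshold for which no share over all features was counted. Whether Snhg14 differs in its response from Meg3 or Kcnq1ot1 was not tested, and the log2 differences of -0.42 for Meg3 and -0.40 for the median Snhg14 member were near each other. Wild-type libraries spread more at Meg3 and Kcnq1ot1, with coefficients of variation of 22.9%, 20.5% and 21.4%, than at the median Snhg14 member, with 10.3%.

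The authors' deposited table places most of the Snhg14 members in a domain for which no differing mRNA is listed, and so too Meg3. For the domain of the Kcnq1ot1 members it lists Cdkn1c, an imprinted cell cycle inhibitor that Kcnq1ot1 is known to silence in cis, and Th, tyrosine hydroxylase, as lower mRNAs. For the plus-strand member MSTRG.80485 it lists the imprinted gene Magel2 as lower.

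Features at other imprinted loci did not share 1 direction. Of a list of 55 genes, 15 had 52 features, and 37 of these, at 14 genes, were tested. By limma 11 were called higher, all at Trappc9, and 4 lower, at Copg2, Grb10 and Trappc9, beside 15.6% and 12.6% of all tested features, and the median log2 difference was 0.20. MSTRG.72911 (chr6:30802812-30808925), antisense to Copg2, fell from 2984 ± 613 to 1393 ± 287 normalised counts (SD, n = 5 and 6), a log2 difference of -1.10 (SE 0.16, limma adjusted p = 4.79e-06). Copg2 encodes a coat protein subunit and lies next to the imprinted gene Mest.

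The other 3 called features of highest mean lie antisense to Trappc9, in the locus of the imprinted RNA Peg13. MSTRG.32056 (chr15:72639397-72646865) rose from 94.5 ± 19.7 to 363 ± 63.4 normalised counts (SD, n = 5 and 6), a log2 difference of 1.94 (SE 0.18, limma adjusted p = 2.39e-09). MSTRG.32055 rose from 23.7 ± 2.17 to 90.7 ± 10.2 and MSTRG.32074 from 51.9 ± 22.0 to 133 ± 42.2. Of the 15 features tested at Trappc9, 11 were called higher and 1 lower. Airn, another paternal antisense RNA that silences its neighbours in cis, was not called. Its feature MSTRG.37445, chosen for its likeness to Kcnq1ot1 with its values known, went from 414 ± 104 to 335 ± 30.0 (SD, n = 5 and 6), a log2 difference of -0.28 (limma adjusted p = 0.242).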

How the data were processed

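The 11 libraries were grouped by the genotype in the labels (5 wild-type, 6 Nrl knockout). The signal in each library column is a read count that the authors normalised with DESeq2, as the table's name says, which also gives mm10. The log2 fold change with its standard error, the score and the p-value columns were deposited by the authors as their comparison. The tools in the submitters' processing notes, without roles, are Cufflinks 2.2.1, TopHat2 2.0.10 and Cuffdiff, and the builds mm9 and mm10. The sources used here do not give the assembly, the counting tool, the use of strand or the treatment of reads with several places.

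Table starts count from 0 (with 1 added, 140 of 140 features with a GENCODE name matched GENCODE M21), and 1 was added to them. Each of the 36097 unique features was used 1 time. limma 3.58.1 (lmFit, eBayes with trend and robust, R 4.3.3) was fitted on log2(normalised count + 1) to 21395 features with a mean of at least 5, two-sided. Differences on this scale understate the change of low features. Since 100% of values were whole multiples of 1 read (tolerance 0.001), edgeR 4.0.16 and DESeq2 1.42.0 were run on the recovered reads of 9 libraries. Wild-type 5 and knockout 2, where 1 read is worth 1.01 normalised counts, were left out. A check of the units could not mark their reads as recovered. In knockout 6, which was kept, 1 read is worth 0.976. A limit of 3 reads is 2.28 to 4.11 normalised counts. This limit covers counting error only, while the SDs and SEs cover library-to-library spread. The fits were tested on simulated data. Where the groups were made to differ by a factor of 1.5 (69 features), limma recovered 3, edgeR 2 and DESeq2 2. With a factor of 4 (61 features) they recovered 55, 57 and 51. Small differences were thus mostly missed in the simulation. It gave all features the same setting for the spread between libraries. A far smaller share of features differed in it than the 28.1% called in the real data. The recovered shares therefore need not hold for the members. A member not called may still differ by a small factor.

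Named members were, in each cluster, the 4 of highest mean on each strand, the 5 called ones of largest log2 difference in each direction and the one of highest mean at each annotated gene; members over snoRNA genes were counted, and named where these rules took them. The remaining called members, the features near or within others and those at Airn and Gngt2 were named after their values were seen. For other imprinted loci the 4 called features of highest mean were named. Members and lists were chosen with earlier results of these data known. Alternatives were other pseudocounts, filters and scalings, the count tests, a replicate block and leaving out each library.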

Additional observations from a re-analysis of the deposited data

Results flagged for a closer look

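One value stood far from the others of its group. In wild-type 3 the minus-strand member MSTRG.80480 held 4.64 normalised counts, where the other 4 wild-type libraries held 8.71 to 9.60, and the gap was 0.82 of the group's whole range. The member is scarce, at 3 to 10 reads per library. Of the 91 groups of libraries looked at in this way 1 was flagged, and chance flags about 1 in 20. Without a test of a cause, the value is given as measured.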

How the results depend on the processing

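The direction of every minus-strand member held in all settings run: the highest log2 difference of the 36 stayed below 0, and their median lay between -0.42 and -0.34. The number called lower in the Snrpn to Ube3a window, 9, did not hold. It was 2 with no filter on the mean, 16 with a mean of at least 20 (beside 19.7% of all features lower), 1 with edgeR, 3 with DESeq2, 1 with limma on the same 9 libraries (a choice made after seeing the data) and 3 to 10 when 1 library was left out. For Meg3 it was 0 to 1. With a mean of at least 20, 1722 of all features were higher and 1628 lower, because fewer were tested. MSTRG.80254 changed sign to 0.011 with a pseudocount of 5, 0.42 with edgeR, 0.40 with DESeq2, 0.31 with limma on 9 libraries, and ran from -0.16 to 0.18 when 1 library was left out (0.11 without wild-type 5, 0.18 without knockout 2 and 0.095 without knockout 6). The cause was not tested. Other named members kept their sign. Members of few reads are limited by depth.

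Whether the replicate numbers pair the libraries cannot be told from 5 pairs. Same-numbered libraries correlated at 0.00 to 0.29, with 3 of 5 pairs over 0.1, and differently numbered ones at -0.39 to 0.34. Of the wild-type libraries, 1 of 5 correlated best with its own number. With the replicate block, on 10 libraries, 20 members were called lower (7 on these 10 without it) beside 15.3% of all features, and MSTRG.80254 was at 0.095.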
